A study of Homo sapiens with 40 samples.

Results

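RNA tagged by an engineered peroxidase in the mitochondrial matrix was compared with RNA tagged by the same enzyme in the cytosol, in human HEK293T cells fed the nucleoside s6G. It rests on 8 of the 40 libraries of the series, chosen by their labels and not by any measured value: MITO s6G enriched, MITO s6G input, NES s6G enriched and NES s6G input, with 2 libraries each. HEK293T is an embryonic kidney cell line, and APEX2 is a peroxidase that, given peroxide, makes biotin-phenol reactive for an instant, so that molecules close to the enzyme receive biotin. The MITO construct carries APEX2 into the mitochondrial matrix and the NES construct keeps it in the cytosol through a nuclear export signal. All 8 libraries come from cells given 100 uM s6G (6-thioguanosine, a guanosine analog that cells build into new RNA) for 5 h. Biotin-phenol (0.5 mM) was present in the final 30 min, and peroxide (1 mM) for 1 min. Enriched libraries hold the RNA that streptavidin beads took from 6.5 ug of RNA after labelling, and input libraries hold 300 ng of the same RNA before the beads. Both were selected for polyA tails, with 15 cycles of PCR for enriched and 11 for input libraries. The labels do not say which promoter drove APEX2, nor whether the cells were 1 clone. An unlabelled MITO arm, which had peroxide but neither s6G nor biotin-phenol, serves as background for the beads, and no unlabelled NES arm was analysed here.

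Mitochondria keep a small genome of their own (mtDNA), which is transcribed inside the matrix into long precursors from both strands. These are cut into 13 mRNAs, 2 rRNAs and 22 tRNAs. The mRNAs encode core subunits of the complexes of oxidative phosphorylation and are translated by mitochondrial ribosomes, so these RNAs are made, read and degraded behind the inner membrane. All other mitochondrial proteins are encoded in the nucleus, translated mostly on cytosolic ribosomes and imported. A peroxidase in the matrix and a peroxidase in the cytosol are thus on opposite sides of the inner membrane.

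The quantity tested was the difference of enrichments: log2 enriched over input for MITO, minus log2 enriched over input for NES. It is above 0 where an RNA was held on the beads more strongly with the matrix peroxidase than with the cytosolic one. A gene was called when the adjusted p of edgeR's quasi-likelihood test, with Benjamini-Hochberg adjustment over all genes tested, was below 0.05. Errors on log2 values are standard errors worked back from the log2 value and the F statistic of that test, with n = 2 libraries per group. A pair is the enriched and the input library of the same biological replicate. Enriched MITO libraries held 4073107 and 3678046 counts, MITO inputs 3514076 and 3563220, NES enriched libraries 8229934 and 7761433, and inputs of NES 5415679 and 5647513. Markers associated with HEK293T cells were present in all 8 libraries (8 genes, summed 644 to 1750 CPM among nuclear genes, none at 0 throughout). A list of 16 markers of other cell types summed to 25.7 and 53.4 CPM in MITO enriched and 50 and 87.4 CPM in MITO input libraries, against 7.18 and 8.79 CPM in NES enriched and 29.3 and 35.1 CPM in NES input libraries. COL1A1 made up to 82.6 CPM of that, 6 of the 16 were at 0 in all 8 libraries, and its part in the results below was not tested.

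RNA from mtDNA went in opposite directions with the 2 peroxidases. It made up 36.1% and 58.2% of counts in the enriched MITO libraries, against 5.54% and 5.9% in their inputs. In the enriched NES libraries it made up 1.84% and 1.8%, against 6.79% and 6.25% in their inputs. With the matrix peroxidase the share thus rose 6.51-fold and 9.88-fold within its pairs, while with the cytosolic one 0.271 and 0.288 of it was left. The fall was not particular to NES among the constructs used with s6G. The mean share went from 7.47% to 1.78% with ERM, at the endoplasmic reticulum membrane. With LMNB1, at the nuclear lamina, it went from 5.25% to 1.92%. On the log2 scale the pairs lay at 2.70 and 3.30 for MITO and at -1.88 and -1.80 for NES, a difference of 4.84. The 2 MITO pairs did not overlap the 2 NES pairs, and the exact two-sided permutation test gave p = 0.333, the smallest that 2 pairs against 2 can give. In the unlabelled MITO arm the share was 4.09% and 9.53% after the beads, against 5.48% and 4.81% before them, so its pairs fell on both sides of 0 (-0.42 and 0.99). The first of those enriched libraries held only 123341 counts. The 95% Wilson intervals of single shares were narrow (36 to 36.1% and 58.2 to 58.3% in MITO enriched libraries), so counting error is small beside the gap between the 2 MITO replicates. Such intervals cover counting error only, since PCR copies are not independent molecules.

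**Figure D1:**
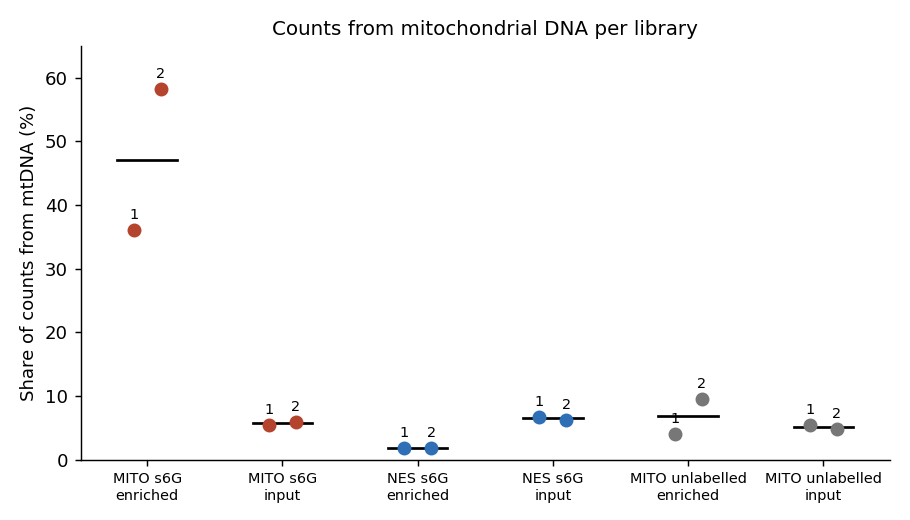
Share of counts from mtDNA (%, linear axis from 0) in each library, with the replicate number above each point and a bar at the group mean (n = 2). The enriched MITO s6G libraries stand at 36.1% and 58.2%, and the enriched NES s6G libraries at 1.84% and 1.8%, below their own inputs at 6.79% and 6.25%.

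All 13 mtDNA mRNAs and both mtDNA rRNAs were called higher for the difference of enrichments, as were 3 of the 22 mtDNA tRNAs. In the same fit 8.19% of 16139 genes were called higher. Among the 13 mRNAs the median difference was 6.00 and the range 3.86 to 6.75, against a median of -0.07 over all genes tested. In 32.3% of all genes both MITO pairs lay above both NES pairs, and this held for all 18 mtDNA RNAs tested. The difference had 2 sides. MITO enrichment alone was called higher for 13 of 13 mRNAs (median 3.83, beside 2.86% of all genes called higher and 3.32% lower). NES enrichment alone was called lower for 11 of 13 (median -2.08, beside 23.2% of all genes). Between the MITO and NES inputs no mtDNA mRNA, rRNA or tRNA was called (162 of all genes were called higher and 48 lower), and the median difference of the mRNAs there was -0.21. The second MITO pair lay above the first for each of the 18, by 0.68 (MT-ATP8) to 1.80 (MT-ND1) log2 units among mRNAs, while the NES pairs of the mRNAs lay within 0.44 of each other.

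Complex IV, the cytochrome c oxidase that passes electrons to oxygen, has 3 mtDNA-encoded subunits, and the mRNA of its catalytic core led the mRNAs. MT-CO1 (ENSG00000198804, GRCh38 chromosome MT, 5904 to 7445) had 172664 and 283930 TMM-scaled CPM in MITO enriched libraries and 11905 and 12048 in MITO inputs. The same RNA had 2303 and 2176 in NES enriched libraries and 12623 and 12630 in NES inputs. Its 4 inputs were thus nearly level, the MITO enriched values lay far above them and the NES enriched values far below. The difference of enrichments was 6.75 ± 0.40 (edgeR adjusted p = 3.39e-10). The MITO part was 4.25 ± 0.29 and the NES part -2.50 ± 0.27. MT-CO2 differed by 6.44 ± 0.48 and MT-CO3 by 6.00 ± 0.46, the other core subunits.

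The ribosomal RNAs of mitochondria stood above or beside the mRNAs. MT-RNR2, the large-subunit rRNA (chromosome MT, 1671 to 3229), had 47203 and 183671 CPM in MITO enriched libraries and 3668 and 5075 in MITO inputs, against 848 and 1104 in NES enriched libraries and 6191 and 8071 in NES inputs. Its difference of 7.59 ± 0.62 (edgeR adjusted p = 3.84e-08) was the highest among the mRNAs and rRNAs. MT-RNR1, the small-subunit rRNA (648 to 1601), differed by 6.71 ± 0.54. The inputs were selected for polyA, so these levels say nothing of total rRNA.

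Complex I, the entry point of electrons from NADH, takes 7 mtDNA-encoded subunits, and their mRNAs ranged from 3.86 to 6.32. MT-ND2 and MT-ND1 differed by 6.32 ± 0.56 and 6.23 ± 0.52, and MT-ND3 by 6.19 ± 0.52. MT-ND4 and MT-ND4L, which overlap on the genome (10760 to 12137 and 10470 to 10766) and so may share reads, differed by 5.01 ± 0.47 and 5.01 ± 0.45. MT-CYB of complex III differed by 6.00 ± 0.44. The mRNAs of the ATP synthase subunits MT-ATP6 and MT-ATP8, which also overlap (8527 to 9207 and 8366 to 8572), differed by 5.49 ± 0.43 and 5.86 ± 0.66.

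MT-ND5 and MT-ND6 were the lowest of the 13, at 3.86 ± 0.46 (edgeR adjusted p = 1.49e-05) and 4.55 ± 0.51 (adjusted p = 8.88e-06). With the matrix peroxidase they were enriched like the others, by 3.68 ± 0.35 and 4.10 ± 0.39. What set them apart lay with the cytosolic peroxidase, where they were the 2 mRNAs not called lower: MT-ND5 at -0.18 ± 0.31 (edgeR adjusted p = 0.655) and MT-ND6 at -0.45 ± 0.35 (adjusted p = 0.296). MT-ND5 (12337 to 14148) had 26760 and 38359 CPM in MITO enriched libraries and 3048 and 2047 in MITO inputs, against 3599 and 3105 in NES enriched libraries and 4214 and 3398 in NES inputs. MT-ND6 (14149 to 14673) had 11049 and 23602 CPM in MITO enriched libraries and 1125 and 890 in MITO inputs, against 913 and 868 in NES enriched libraries and 1430 and 1003 in NES inputs. The NES enriched values of MT-ND5 overlapped those of its NES inputs, and those of MT-ND6 lay under its NES inputs with no overlap. The genes are neighbours on opposite strands, and MT-ND6 is the only mRNA of the light strand. No source used here gives the strand setting of the counting, so reads of heavy-strand RNA that runs across MT-ND6 cannot be told apart from its own.

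**Figure D2:**
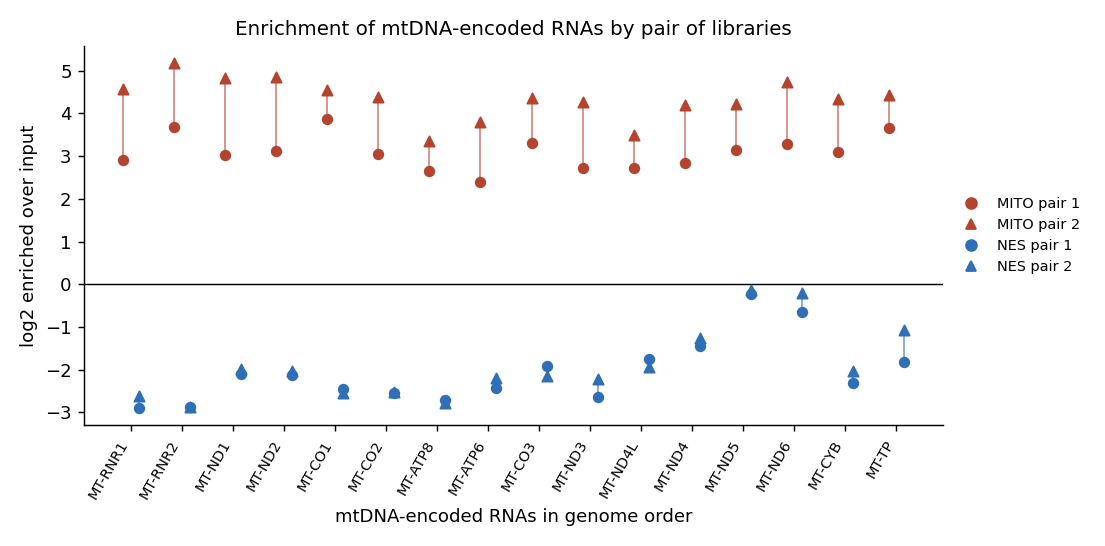
Log2 enriched over input of the 13 mRNAs, 2 rRNAs and MT-TP in genome order, with circles for pair 1 and triangles for pair 2, MITO left of NES for each RNA (TMM-scaled CPM). MITO pairs lie between 2.38 and 5.18, and NES pairs below 0, from -2.90 for MT-RNR1 up to -0.13 for MT-ND5.

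As a share of mtDNA counts alone, which leaves out how much mtDNA RNA a library held, MT-ND5 took up 5.04% and 3.09% in MITO enriched libraries and 5.58% and 3.73% in MITO inputs. The same share was 20.1% and 18.8% in NES enriched libraries and 6.33% and 5.59% in NES inputs. MT-ND6 took up 2.08% and 1.9% in MITO enriched libraries and 2.06% and 1.62% in MITO inputs, against 5.10% and 5.27% in NES enriched libraries and 2.15% and 1.65% in NES inputs. Within its pairs the share of MT-ND5 changed by -0.15 and -0.27 (log2) for MITO and by 1.67 and 1.75 for NES. MT-ND6 changed by 0.01 and 0.23 for MITO and by 1.25 and 1.67 for NES. The little mtDNA RNA left on the beads with the cytosolic peroxidase thus held larger shares of these 2 mRNAs than its inputs, and with the matrix peroxidase both changes were far smaller. MT-ND4, which lies next to MT-ND5, took up 18.5% and 18% in NES enriched libraries and 13.6% and 11.6% in NES inputs, against 10.6% and 10.7% in MITO enriched libraries and 14.4% and 13.2% in MITO inputs.

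MT-CO1 and MT-RNR2 took smaller shares in NES enriched libraries than in NES inputs. MT-CO1 took up 32.5% and 22.9% in MITO enriched libraries and 21.8% and 21.9% in MITO inputs, against 12.9% and 13.2% in NES enriched libraries and 19% and 20.8% in NES inputs. MT-RNR2 took up 8.89% and 14.8% in MITO enriched libraries and 6.71% and 9.24% in MITO inputs, against 4.74% and 6.7% in NES enriched libraries and 9.3% and 13.3% in NES inputs. The MT-ND5 share was also high after enrichment with the 2 other constructs used with s6G, ERM at the endoplasmic reticulum membrane (15.7% to 22.4% in 4 enriched libraries, against 5.4% to 5.92% in 4 inputs) and LMNB1 at the nuclear lamina (9.43% and 13%, against 5.6% and 7.1%). With 2 libraries a group these NES and LMNB1 shares are given as values without a test.

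**Figure D3:**
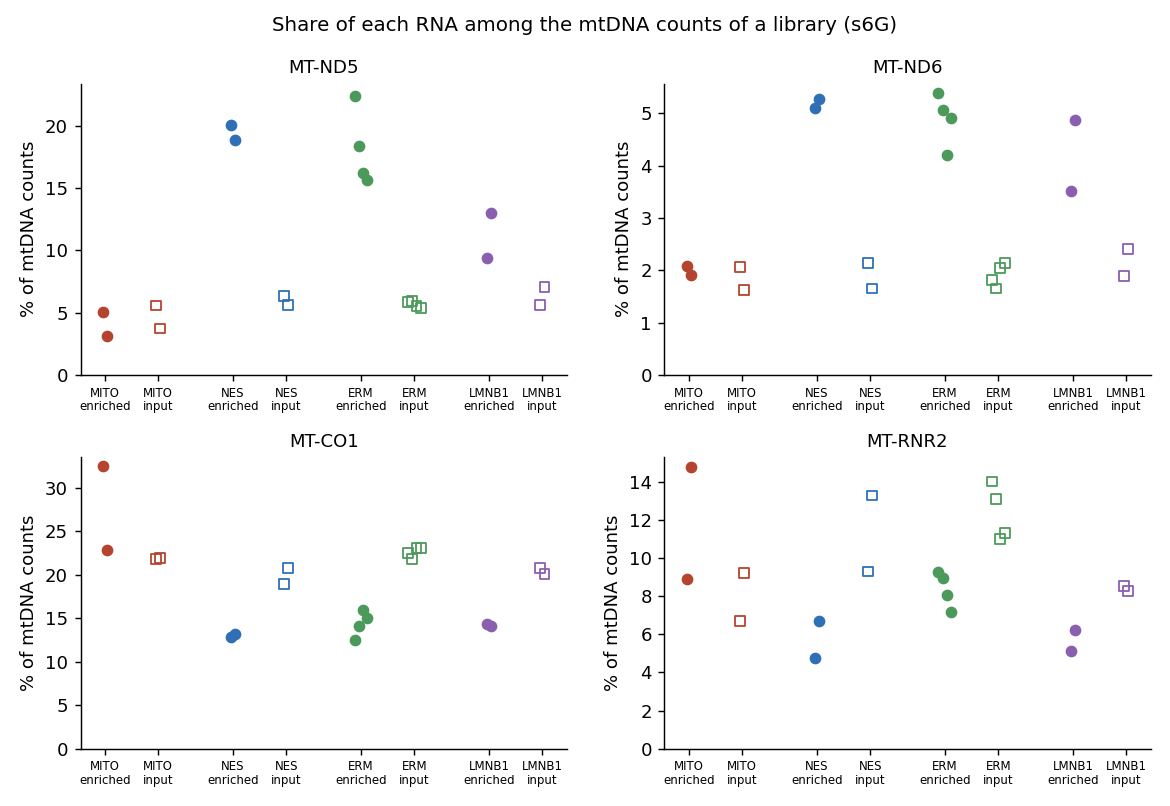
Share of 4 mtDNA RNAs among all mtDNA counts of a library (%, axes from 0), with filled circles for enriched and open squares for input libraries, 1 point per library. MT-ND5 stands at 20.1% and 18.8% in NES enriched libraries and at 5.04% and 3.09% in MITO enriched ones, and MT-CO1 runs the other way.

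Levels per length were compared for MT-CO1, MT-CO2 and MT-ND5. As CPM of nuclear counts per kilobase, MT-CO2 had 70766 and 209046 in MITO enriched libraries and 8693 and 10096 in MITO inputs, against 1496 and 1467 in NES enriched libraries and 9185 and 8350 in NES inputs. MT-CO1 had 118846 and 206577 in MITO enriched libraries and 8278 and 8905 in MITO inputs, against 1564 and 1568 in NES enriched libraries and 8955 and 8976 in NES inputs. MT-CO1 lay above MT-CO2 in both NES enriched libraries, and their ranges overlapped in the other groups. MT-ND5 had 15675 and 23750 in MITO enriched libraries and 1804 and 1288 in MITO inputs, against 2079 and 1904 in NES enriched libraries and 2544 and 2055 in NES inputs. It thus lay below MT-CO1 and MT-CO2 in MITO enriched libraries and in all inputs, and above them in NES enriched libraries. MT-CO3, the remaining core subunit of complex IV, had 2198 and 1822 in NES enriched libraries, a range that overlaps that of MT-ND5. MT-ND4 lay above MT-ND5 there, at 2514 and 2391.

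Transfer RNAs of mtDNA are short, lack long polyA tails and were mostly out of reach here: 15 of 22 had no count in any of the 8 libraries, and 19 did not pass the filter on low counts. Of these 19, none had more than 12 counts in a library. MT-TP, the tRNA for proline next to the control region (15956 to 16023), had 1011 and 1557 counts in MITO enriched libraries and 102 and 160 in MITO inputs, against 73 and 137 in NES enriched libraries and 169 and 199 in NES inputs. Its difference of enrichments was 5.55 ± 0.61 (edgeR adjusted p = 1.49e-05). MT-TC, for cysteine, had 25 and 41 counts in MITO enriched libraries and 0 in both MITO inputs, against 0 in both NES enriched libraries and 1 and 2 in NES inputs. MT-TY, for tyrosine, had 14 and 41 counts in MITO enriched libraries and 0 and 1 in MITO inputs, against 0 and 1 in NES enriched libraries and 3 and 4 in NES inputs. Both were called (edgeR adjusted p = 0.00333 and 0.00498), and no fold is given because groups at or near 0 set it. With no strand setting known, reads of precursors from either strand across MT-TP, MT-TC and MT-TY cannot be told from the tRNAs.

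Nuclear genes were fitted again on counts without the 37 mtDNA genes, since those genes took up so unequal a part of the enriched libraries. This left 2604251 and 1535693 nuclear counts in MITO enriched libraries, against 8078490 and 7621799 in NES enriched ones. MITO inputs kept 3319484 and 3353053, and NES inputs 5047731 and 5294730. Among 16305 nuclear genes tested, 1388 (8.51%) were called higher and 1566 (9.6%) lower for the difference, with a median of -0.03. Of these 2954 genes, 2953 had MITO pairs that did not overlap the NES pairs, as did 67.7% of all nuclear genes tested. This difference came mostly from the NES side. Genes called higher had a median enrichment of 0.12 with MITO and of -1.31 with NES, and genes called lower had 0.25 with MITO and 1.68 with NES. The NES pattern was not particular to that construct. With ERM the same 2 sets had medians of -1.19 and 1.22, and with LMNB1 of -0.09 and -0.02. Of the 1388, 1239 (89.3%) were called lower with NES alone and 149 (10.7%) higher with MITO alone. Of the 1566, 1516 (96.8%) were called higher with NES alone and 21 (1.34%) lower with MITO alone. Over all nuclear genes, 3981 were called up and 3851 down with NES (24.4% and 23.6%), and 428 up and 512 down with MITO (2.62% and 3.14%). Replicates differed more with MITO, with a standard deviation between enriched replicates of 0.58 log2 units against 0.25 with NES. The fit takes 1 spread per gene over all its groups, so the errors of MITO and NES are not estimated apart. The log2 enrichments of all nuclear genes had an interquartile range of 0.83 with MITO and 1.75 with NES. What part replicate spread or depth has in the number of calls was not tested.

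These counts move with the pairing and with single libraries. A replicate block raised them to 2627 higher and 3023 lower in edgeR's test, with 1381 of the 1388 and 1556 of the 1566 among them. That fit leaves 6 residual degrees of freedom, against 12 without the block, and leans more on the spread pooled over genes. Leaving out 1 library at a time gave 723 to 1068 higher and 814 to 2364 lower. The count of higher genes was 777 without MITO input 1, 847 without MITO enriched 2, 723 and 805 without NES inputs 1 and 2, and 778 and 747 without NES enriched 1 and 2. The count of lower genes was 814 without MITO input 1, 2364 without MITO enriched 1, 992 without MITO enriched 2, 883 and 1014 without NES inputs 1 and 2, and 944 without NES enriched 1. In bulk RNA, more of an RNA on the beads and less of all others there cannot be told apart.

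**Figure D4:**
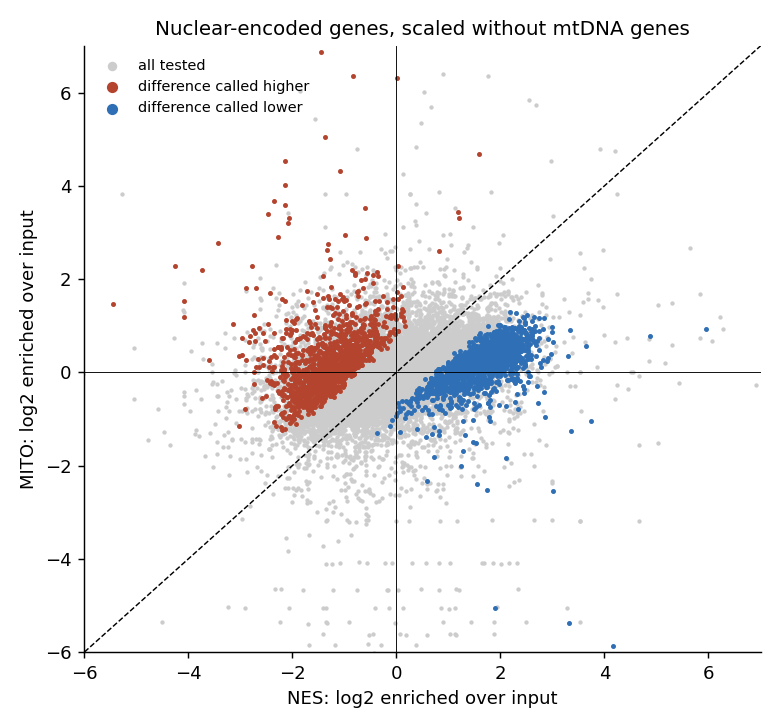
Log2 enriched over input of 16305 nuclear genes with MITO (vertical axis) against NES (horizontal axis), with genes called for the difference in red (1388 higher) and blue (1566 lower) and equal enrichment on the dashed line. The called genes spread along the NES axis around medians of -1.31 and 1.68, while their MITO medians are 0.12 and 0.25 (32 genes lie outside the axes).

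The top of the nuclear genes was again mitochondrial in sequence. MTCO1P12 (GRCh38 chromosome 1, 631074 to 632616), MTND2P28 and MTATP6P1 are nuclear copies of mtDNA, whose reads cannot be told from those of mtDNA itself. MTCO1P12 had 678 and 1543 CPM in MITO enriched libraries and 31.8 and 63.3 in MITO inputs, against 6.45 and 6.12 in NES enriched libraries and 31.1 and 24.8 in NES inputs. Its difference of 6.69 ± 0.64 (edgeR adjusted p = 8.97e-06) stands beside 6.75 for MT-CO1. MTND2P28 differed by 5.73 ± 0.45 and MTATP6P1 by 5.28 ± 0.40. Of 11 such copies tested, 9 were called higher and 0 lower.

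Genes of the heterogeneous nuclear ribonucleoproteins, which bind nascent pre-mRNA in the nucleus, hold 2 of the next places and were the only others of the 10 highest called up with MITO alone. HNRNPA2B1 (chromosome 7, 26189927 to 26200746) had 8836 and 12798 CPM in MITO enriched libraries and 2569 and 2398 in MITO inputs, against 2108 and 1767 in NES enriched libraries and 3535 and 3161 in NES inputs. It rose by 2.12 ± 0.25 with MITO (edgeR adjusted p = 2.76e-05), fell by 0.79 ± 0.24 on the log2 scale with NES, and differed by 2.91 ± 0.35 (adjusted p = 3.63e-05). HNRNPA1L3, an almost identical copy of HNRNPA1 whose reads may belong to that gene, differed by 2.89 ± 0.40. The whole family was picked after its values were seen, so it gets no test: its 20 tested members had a median enrichment of 1.46 with MITO and of -0.38 with NES, with differences from -0.86 to 2.91. Their summed level was 36755 and 50436 CPM in MITO enriched libraries and 15790 and 15026 in MITO inputs, against 17073 and 16151 in NES enriched libraries and 20435 and 18203 in NES inputs. In the unlabelled MITO arm HNRNPA2B1 lay at -0.86 and 0.10 (log2 enriched over input).

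The other 5 genes of the 10 highest fell with NES. These were not called with MITO alone. EIF4A1, the helicase that unwinds mRNA for translation, had 44.4 and 32.3 CPM in MITO enriched libraries and 23.3 and 23.5 in MITO inputs, against 11.5 and 7.95 in NES enriched libraries and 47.1 and 41 in NES inputs. It differed by 2.91 ± 0.42 (edgeR adjusted p = 0.000178), fell by 2.18 ± 0.29 with NES and was not called with MITO (0.73 ± 0.30, adjusted p = 0.164). EIF4A1 lies within the readthrough gene SENP3-EIF4A1, and RPL36A (2.80 ± 0.33) within RPL36A-HNRNPH2, so their low counts hold an unknown part of their reads. CDK5RAP3 differed by 2.83 ± 0.41 and the pseudogene AHSA2P by 2.93 ± 0.44.

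For each of the 10 lowest nuclear genes, both NES enriched libraries lay above the other 6 libraries. H1-4, a linker histone (chromosome 6, 26156329 to 26157115), had 4.37 and 10.3 CPM in MITO enriched libraries and 3.46 and 3.67 in MITO inputs, against 64.3 and 230 in NES enriched libraries and 2.84 and 1.93 in NES inputs. It differed by -5.02 ± 1.13 (edgeR adjusted p = 0.00591) and rose by 5.94 ± 0.62 with NES. KLHL11, an adaptor of a ubiquitin ligase, had 31 and 32.9 CPM in MITO enriched libraries and 32.1 and 21.5 in MITO inputs, against 127 and 144 in NES enriched libraries and 17.3 and 19.3 in NES inputs. Its difference was -2.64 ± 0.47 (adjusted p = 0.000979). Among the others were ZNF460 (-3.81 ± 0.77), POMK (-2.92), ZNF536 (-2.81), ZNF805 (-2.77), SHISA2 (-2.66), IRS2 of insulin signalling (-2.65) and PLCL2 (-2.63). Without MITO input 1, ZNF460 (-2.24, adjusted p = 0.0749) and POMK (-2.17, adjusted p = 0.0767) missed the threshold in edgeR's test. ZNF536 missed it with 6 of the 8 libraries left out (adjusted p = 0.0511 to 0.28, the highest without MITO input 2, at -1.80).

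Nuclear genes for the respiratory chain were higher on the MITO side, and their enrichment with MITO alone was near 0. Of 36 nuclear-encoded complex I genes tested, 13 were called higher for the difference and 0 lower, with a median of 1.08. Of 41 genes of complexes II to V, 19 were called higher and 1 lower, with a median of 1.03. Their medians were 0.08 and -0.13 with MITO alone, with 1 gene of each list called higher, and -1.01 and -1.19 with NES alone, where 26 and 36 were called lower. Over all nuclear genes, 2.62% were called higher with MITO and 23.6% lower with NES. Summed over complex I, the level was 3144 and 4434 CPM in MITO enriched libraries and 3207 and 3749 in MITO inputs, against 1611 and 1701 in NES enriched libraries and 3325 and 3454 in NES inputs. COX7C of complex IV had 390 and 565 CPM in MITO enriched libraries and 373 and 410 in MITO inputs, against 147 and 146 in NES enriched libraries and 394 and 409 in NES inputs, a difference of 1.74 ± 0.37 (edgeR adjusted p = 0.00313). NDUFS6 of complex I differed by 2.19 ± 0.42 and was also called with MITO alone (1.23 ± 0.30, adjusted p = 0.017). ATP5ME of the ATP synthase differed by 2.41 ± 0.52. With the replicate block, 27 and 33 of these genes were called higher (against 2627 of all 16305 nuclear genes). With 1 library left out they were 8 to 15 and 7 to 16, in both lists fewest without MITO enriched 2 (8 and 7). Leaving out MITO input 1, NES input 1 or 2 or NES enriched 2 gave 8, 9, 10 and 8 for complexes II to V.

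Other nuclear genes for mitochondrial proteins had shares of calls nearer to those of all nuclear genes (8.51% higher and 9.6% lower). Mitochondrial ribosomal proteins had 5 called higher and 3 lower of 74 (median 0.15), with MITO and NES medians of 0.02 and -0.10. Factors of mitochondrial gene expression had 7 higher and 2 lower of 36 (median 0.27), and carriers and import genes 4 and 4 of 49 (median 0.20). With the replicate block these were 16 and 12, 11 and 6, and 12 and 10, beside 2627 and 3023 of all 16305 nuclear genes. With 1 library left out, the higher calls were 2 to 4, 1 to 4 and 1 to 5, and the lower calls 1 to 7, 1 to 6 and 2 to 7. The most lower calls came without MITO enriched 1, and the fewest higher calls without MITO enriched 2 (ribosomal proteins) or NES enriched 2 (the other lists). MRPL51 of the large ribosomal subunit differed by 1.35 ± 0.44, SLIRP, which stabilises mtDNA mRNAs, by 1.53 ± 0.38, and TOMM7 of the outer membrane import complex by 2.06 ± 0.42 (edgeR adjusted p = 0.0379, 0.00811 and 0.00219). MRPL51 missed the threshold with 7 of the 8 libraries left out (edgeR adjusted p = 0.0892 to 0.177), and SLIRP without NES enriched 2 (adjusted p = 0.0506). SLIRP had 109 and 138 CPM in MITO enriched libraries and 91.9 and 101 in MITO inputs, against 49.7 and 37.3 in NES enriched libraries and 101 and 95.7 in NES inputs.

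Cytosolic ribosomal proteins, the subunits of the ribosomes outside mitochondria, were also higher on the MITO side. Of 76 genes tested, 50 were called higher and 0 lower (median 1.19), and all 76 differences were above 0. Their median was -0.12 with MITO and -1.30 with NES, where 75 of 76 were called lower (against 23.6% of all nuclear genes). Together they held 80155 and 98102 CPM in MITO enriched libraries and 96597 and 102339 in MITO inputs, against 36139 and 40472 in NES enriched libraries and 83730 and 98555 in NES inputs. RPL11 had 2399 and 2493 CPM in MITO enriched libraries and 1154 and 1158 in MITO inputs, against 502 and 558 in NES enriched libraries and 1185 and 1337 in NES inputs. It differed by 2.33 ± 0.36 (edgeR adjusted p = 0.000371) and was 1 of 2 of these genes called higher with MITO alone (1.08 ± 0.26, with -1.25 ± 0.26 for NES). The count was 73 with the replicate block and 18 to 40 with 1 library left out, 18 without MITO enriched 2, 20 without NES input 2 or NES enriched 1, and 24 without MITO input 1 or NES enriched 2. In the unlabelled arm the median of the list was 0.24, and it was -1.74 with ERM and -0.59 with LMNB1.

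**Figure D5:**
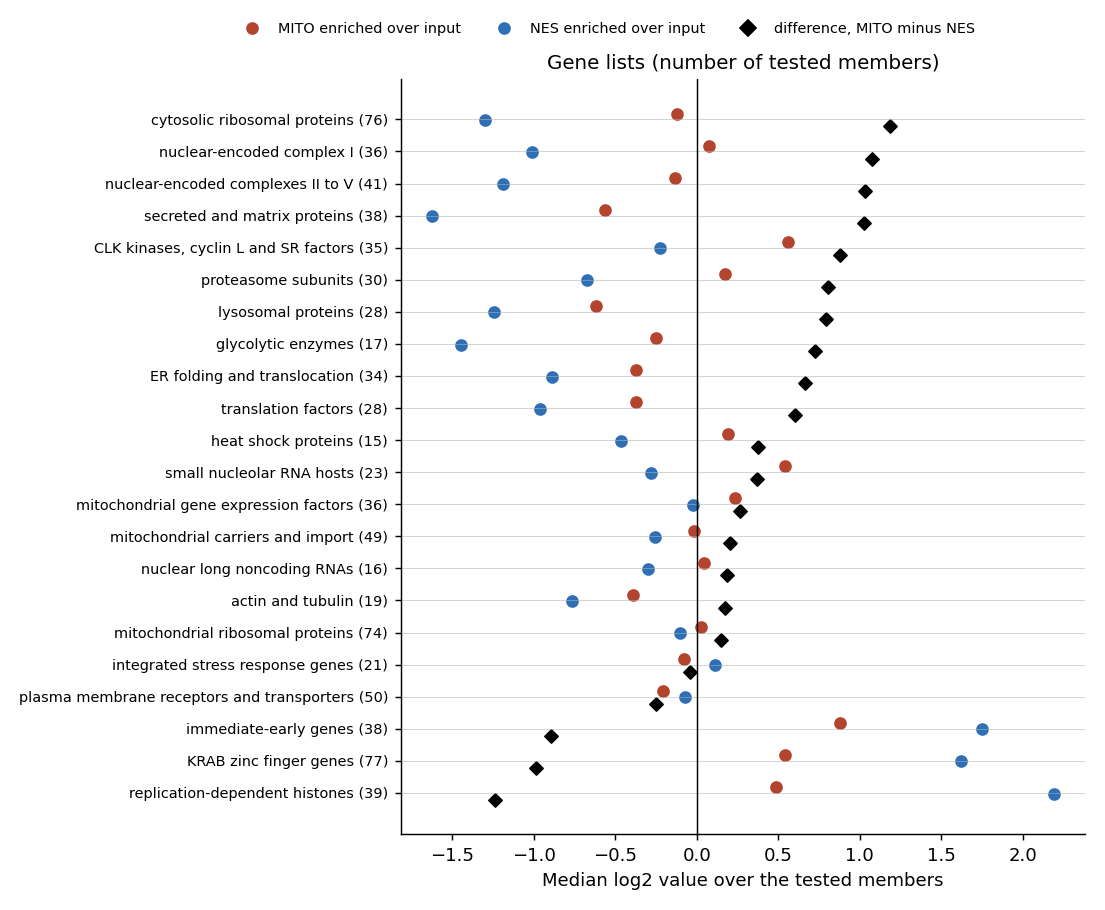
Median log2 enriched over input with MITO (red) and NES (blue), and median difference of enrichments (black), for the 22 gene lists with 10 or more tested members (number tested in parentheses). Lists at the top, from cytosolic ribosomal proteins (1.19) down, have NES medians far below 0 and MITO medians nearer to it, and lists at the bottom have NES medians of 1.62 to 2.19 and MITO medians of 0.48 to 0.88.

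Enzymes, proteasome and secretory genes lay on the same side. Secreted and matrix proteins had 15 called higher and 1 lower of 38 (median 1.03), with medians of -0.56 with MITO and -1.62 with NES. Of these 38, 5 were called lower with MITO and 30 with NES, beside 3.14% and 23.6% of all nuclear genes. COL4A2, a collagen of basement membranes, had 120 and 163 CPM in MITO enriched libraries and 132 and 149 in MITO inputs, against 32.4 and 42.9 in NES enriched libraries and 122 and 153 in NES inputs, a difference of 1.87 ± 0.29 (edgeR adjusted p = 0.000376). Lysosomal proteins had 9 higher and 0 lower of 28 (median 0.80), ER folding and translocation genes 12 and 0 of 34 (0.67), proteasome subunits 10 and 0 of 30 (0.80), glycolytic enzymes 8 and 0 of 17 (0.72), and translation factors 5 and 1 of 28 (0.61). Actin and tubulin genes lay less clearly on this side, with 3 and 0 of 19 (0.17). Only 11 of these 19 differences were above 0, and their median was -0.14 without MITO enriched 1. With the replicate block the lower calls were 1 each for secreted, proteasome and translation factor genes and 0 for lysosomal genes. They were 2 each for ER and glycolytic genes and 3 for actin and tubulin genes. The higher calls were 28 for secreted proteins, 14 for lysosomal, 18 for ER, 21 for proteasome, 13 for glycolytic, 19 for translation factor and 7 for actin and tubulin genes. With 1 library left out they were 7 to 14 for secreted proteins (7 without MITO enriched 2 or MITO input 1), 7 to 9 for lysosomal and 7 to 10 for ER genes. They were 4 to 8 for proteasome (4 without NES input 1, 5 without NES enriched 2 and 6 without MITO enriched 2), 5 to 6 for glycolytic, 1 to 4 for translation factor (1 without MITO enriched 1, MITO input 2 or NES enriched 2) and 1 to 3 for actin and tubulin genes. Examples called with both peroxidases alone, up with MITO and down with NES, are SEC63 of the ER channel (0.95 ± 0.18 and -1.20 ± 0.18), the disulfide isomerase PDIA6 (0.89 ± 0.23 and -1.27 ± 0.23), and PFKM of glycolysis (0.96 ± 0.20 and -1.37 ± 0.20).

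Zinc finger, immediate-early and histone genes lay on the other side, with their highest levels in NES enriched libraries. KRAB zinc finger genes, which encode repressors of transposons and have short-lived mRNAs, had 0 called higher and 26 lower of 77 (median -0.99), with medians of 0.54 with MITO and 1.62 with NES. Immediate-early genes, switched on within minutes of a stimulus, had 3 called higher and 14 lower of 38 (median -0.89), with medians of 0.88 with MITO and 1.75 with NES. With MITO alone 12 immediate-early genes were called higher, and with NES alone 28, beside 2.62% and 24.4% of all nuclear genes. Summed, immediate-early genes had 6094 and 9794 CPM in MITO enriched libraries and 3592 and 4666 in MITO inputs, against 18292 and 12976 in NES enriched libraries and 3148 and 2547 in NES inputs. MYC had 742 and 540 CPM in MITO enriched libraries and 814 and 527 in MITO inputs, against 1326 and 1034 in NES enriched libraries and 296 and 299 in NES inputs. Its difference was -2.05 ± 0.33 (edgeR adjusted p = 0.000491), and part of it lay in the inputs, where MITO was higher by 1.17 (adjusted p = 0.0133). DUSP5, a phosphatase of MAP kinases, was also higher in MITO inputs (3.05, adjusted p = 0.0194), and its difference of -2.42 turns to 0.64 (adjusted p = 0.326) when enriched libraries are compared without inputs. Its call was also lost with 5 of the 8 libraries left out. The 14 lower immediate-early genes were 7 to 12 with 1 library left out, 7 without NES input 2, 8 without NES enriched 1 and 9 without MITO input 1 or 2 or NES input 1. With the replicate block 41 KRAB zinc finger genes were called lower. Their count was 7 without MITO input 1, 10 without MITO enriched 2, 13 and 16 without NES inputs 1 and 2, 12 without NES enriched 1 and 41 without MITO enriched 1.

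Histone mRNAs that follow DNA replication end in a stem-loop and not in a polyA tail, so polyA-selected libraries hold few of them. Over the 39 tested, medians were 0.48 with MITO, 2.19 with NES, 2.32 with ERM and 0.84 with LMNB1. In the unlabelled MITO arm the median was 2.23, but its enriched libraries held only 123341 and 842177 counts. Its pair ratios add 0.5 counts to each library, which with depth sets the ratio of genes at or near 0. H1-4 and H2AC20 thus share a value of 2.21 in pair 2, and the median is no measure of bead background. The summed histone level of the unlabelled enriched libraries was 448 and 824 CPM, against 214 and 638 in their inputs. It was 1438 and 1754 CPM in NES enriched libraries and 534 and 477 in NES inputs. The part of bead background in the NES rise was not tested. For the difference, 0 of 39 were called higher and 7 lower (median -1.24), and 16 were called lower with the replicate block. With 1 library left out they were 2 to 6, with 2 without NES enriched 2 and 4 without MITO enriched 1, MITO input 1 or NES input 1. Among membrane receptors and transporters the 3 lowest called genes were Wnt receptors, with FZD1 at -2.04 ± 0.49, FZD5 at -1.76 ± 0.54 and FZD8 at -1.71 ± 0.44, in a list with 4 higher and 6 lower of 50 (13 and 13 with the block, 1 to 5 and 2 to 10 with 1 library left out). FZD5 lost its call with 6 of the 8 libraries left out and FZD8 with 2. Heat shock genes had 2 higher and 4 lower of 15 with a median of 0.38, and the replicate block turned this balance, with 7 higher and 5 lower. Integrated stress response genes had 0 and 3 of 21 (median -0.04), and 4 and 7 with the block. With 1 library left out the lower calls were 0 to 4 and 0 to 5. The co-chaperone DNAJB1 (-1.25 ± 0.33) lost its call with 3 of the 8 libraries left out and DDIT4 (-1.01 ± 0.32) with 4.

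Genes for CLK kinases, cyclin L and SR factors, whose transcripts often keep introns and stay in the nucleus, had 14 called higher and 2 lower of 35 (median 0.88), with medians of 0.56 with MITO and -0.23 with NES. The replicate block gave 18 higher and 8 lower. The count was 7 higher and 6 lower without MITO enriched 1, 7 and 2 without MITO input 2, 5 and 1 without NES input 1, 8 and 0 without NES input 2, and 5 and 2 without NES enriched 2. CCNL2 had 294 and 291 CPM in MITO enriched libraries and 259 and 240 in MITO inputs, against 99.9 and 76.3 in NES enriched libraries and 352 and 299 in NES inputs, a difference of 2.11 ± 0.32 (edgeR adjusted p = 0.000268). LUC7L3, a splicing factor, differed by 1.63 ± 0.31 and was called up with MITO (1.01 ± 0.22) and down with NES (-0.62 ± 0.22). Long noncoding RNAs had 2 higher and 3 lower of 16, and 0 to 2 and 1 to 3 with 1 library left out. NORAD, a cytoplasmic noncoding RNA that binds Pumilio proteins, was among the lower (482 and 473 CPM in MITO enriched and 269 and 268 in MITO input libraries, against 1428 and 1138 in NES enriched and 378 and 356 in NES input libraries). It was called up with both peroxidases alone (0.83 ± 0.20 and 1.81 ± 0.20), and its difference lost its call with 4 of the 8 libraries left out. Hosts of small nucleolar RNAs had 6 higher and 1 lower of 23, led by SNHG9 (2.48 ± 0.61), which lost its call without MITO enriched 2. With 1 library left out the higher calls were 1 to 6 (1 without MITO enriched 2, 2 without MITO input 1, 3 without NES input 2 or NES enriched 1, and 4 without NES enriched 2).

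Span on the genome was similar in both sets of called genes. The median span from start to end of a gene was 23.9 kb for those called higher and 29.8 kb for those called lower, against 27.7 kb for all tested, with a span known for 95.6%, 98.3% and 91.3% of them. Genes under 2 kb had a median difference of 0.48, and genes of 100 kb or more had -0.18. Long noncoding RNAs were called higher in 39 and lower in 16 of 958 cases (4.07% and 1.67%), against 1219 and 1509 of 12944 protein-coding genes (9.42% and 11.7%).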

How the data were processed

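Polyadenylated RNA was sequenced from HEK293T cells before (input) and after (enriched) binding to streptavidin. In 40 libraries the authors deposited whole-number counts for 57992 Ensembl IDs. Tools named by the submitters' processing notes are HISAT2 2.1.0 and SAMtools, then HTSeq 0.7.2, with DESeq2 and deepTools 2.5.3, on build GRCh38/hg38. Neither annotation nor strand setting is named there. Symbols matched 56948 IDs, and coordinates come from the RefSeq annotation of GRCh38.p14.

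The counts went into edgeR 4.0.16 under R 4.3.3 (robust quasi-likelihood, TMM, default filter, group means) on the 20 libraries titled s6G (MITO 4, ERM 8, NES 4, LMNB1 4), which leaves 12 residual degrees of freedom. Some ERM and LMNB1 libraries are given as s4U in their characteristics and as s6G in their titles, so the 8 libraries of the comparison were also fitted alone. Genes of mtDNA were tested in a fit of all genes, nuclear genes in a fit without the 37 mtDNA genes. TMM-scaled CPM are printed per library, and levels summed over a list are CPM over nuclear counts. The fit was also run on simulated counts with the same spread in every group and no pairing, which does not test the calls made here.

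Per the series design, a replicate number names 1 biological sample before and after the beads, so the number pairs them. Their deviations correlated with r = 0.404 (MITO) and 0.14 (NES). The main fits had no block. The p-values measure the spread within groups over the 20 libraries of the fit, in part pooled over genes. They do not measure the spread of each construct alone. Alternatives were other scalings, filters and fitted libraries, DESeq2 1.42.0, the block and leaving out each library.

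Members and gene lists were chosen with earlier results of these data known. Named genes were every tested mtDNA RNA, the 10 highest and 10 lowest called nuclear genes whose mean log2 CPM was 4 or more, with pairs that did not overlap, and up to 3 called members of each list in the direction of most calls. The heterogeneous nuclear ribonucleoproteins were added after their values were seen. Some genes that this rule names are not reported here.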

Additional observations from a re-analysis of the deposited data

Results flagged for a closer look

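Enrichments that were called in opposite directions with the 2 peroxidases, with the difference itself called in edgeR's test, stood out for 28 of the named genes. Each was up with MITO and down with NES. Among mtDNA RNAs these were, as log2 difference of enrichments, MT-RNR1 6.71, MT-RNR2 7.59, MT-ND1 6.23, MT-ND2 6.32, MT-CO1 6.75, MT-CO2 6.44, MT-ATP8 5.86, MT-ATP6 5.49, MT-CO3 6.00, MT-ND3 6.19, MT-ND4L 5.01, MT-ND4 5.01, MT-CYB 6.00 and MT-TP 5.55. Among nuclear copies of mtDNA they were MTCO1P12 6.69, MTND2P28 5.73 and MTATP6P1 5.28. Among other nuclear genes they were HNRNPA2B1 2.91, HNRNPA1L3 2.89, NDUFS6 2.19, RPL11 2.33, PSMC5 1.67, PFKM 2.33, LDHB 2.02, LUC7L3 1.63, SEC63 2.16, PDIA6 2.15 and CTSL 1.83. For HNRNPA1L3 the reads may belong to HNRNPA1, and NDUFS6 overlaps MRPL36 on the genome. Of all 1388 nuclear genes called higher for the difference, 63 (4.54%) were called up with MITO and down with NES. Of the 1566 called lower, 1 was called down with MITO and up with NES. Named nuclear genes were chosen as called with large differences, so the 28 is no rate over all genes. Groups of 2 libraries are too small to single out a library that stands apart.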

How the results depend on the processing

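All 13 mtDNA mRNAs and both rRNAs were called higher under each of the 18 alternatives tried, the replicate block included (13 and 2). The median difference of the mRNAs was 6.00, 4.97 with total counts, 5.87 with the replicate block and 5.06 to 6.51 with 1 library left out. Total counts also moved the median of all genes to -0.97. The mtDNA share differed by 4.84, by 4.59 to 5.10 with 1 replicate left out, by 4.78 for mRNAs alone and by 4.89 without pairing. The nuclear counts of 1388 higher and 1566 lower were 2627 and 3023 with the replicate block, 2835 and 3471 with the block in a fit of only the 8 libraries (added after seeing the data), 587 and 734 with all 40 libraries in the fit, 2914 and 3183 when enriched libraries were compared without inputs, and 723 to 1068 and 814 to 2364 with 1 library left out. The block fit of the 8 libraries has 2 residual degrees of freedom and takes 73.1 from the spread pooled over genes, so its p-values rest almost wholly on that pooled spread, and 161 of them were below 1e-12 against 0 without the block. The cause of the other shifts was not tested. Of 99 named genes, only JUND lost its call with the block (-2.03, adjusted p = 0.066). DUSP5 reversed without inputs (0.64). Without the filter on low counts 34.9% of nuclear calls were higher, and without MITO enriched 1 31.1%, against 47%. Of the same 99, 24 missed the threshold with all 40 libraries in the fit, 11 to 24 with 1 library left out (24 without MITO enriched 2 or NES input 1, 23 without MITO input 1), and 0 with DESeq2. Limits: 2 libraries a group, no unlabelled NES arm, a count table without strand, and shares that cannot give absolute amounts.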
